A study of Mus musculus with 12 samples.

Results

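B2 and B4 elements are the short interspersed elements (SINEs) that the repeat annotation of the counts table places in the families B2 and B4. The members were all table rows of class SINE and family B2 or B4, 769477 copies of 5138235 repeat copies and of 1530653 SINE copies, and their counts were summed by subfamily. The 372222 B2 copies fell into 5 subfamilies, B2_Mm1a, B2_Mm1t, B2_Mm2, B3 and B3A, and the 397255 B4 copies into 4, B4, B4A, ID_B1 and RSINE1. The libraries came from whole testes of C57BL/6 mice at postnatal day 16 that were either Mael+/-, with 1 working allele of Maelstrom, or Mael-/-, with none. RNA and ribosome footprints were sequenced from each testis extract, with 3 biological replicates per genotype and assay, 12 libraries in all. Maelstrom is a protein that germ cells need to make piRNAs, the small RNAs that hold retrotransposons silent, and the study profiled ribosomes to learn how translation fares where L1 retrotransposons escape that control. The table lists a name and a running number for each copy, with no position, strand, length or sequence, so no copy is placed in a gene here and no sequence is shown.

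B2 elements descend from a tRNA gene and carry an internal promoter for RNA polymerase III. They encode no protein and depend on the proteins of L1 to move. B2_Mm1a, B2_Mm1t and B2_Mm2 are the younger subfamilies of the mouse, while B3 and B3A are older and more diverged. B4 elements join a part derived from tRNA, like that of ID elements, to a part like that of B1. Many copies of both families lie within genes, mostly in introns and in the untranslated ends of mRNAs, and are then transcribed by RNA polymerase II as part of a longer RNA. Counts of a SINE copy can come from either kind of transcript, and the files do not separate them.

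The gene counts of a library summed to 13697267 at the least and 27462358 at the most in RNA, and to 7609932 and 13233565 in footprints. Levels are in CPM, counts divided by the effective total of gene counts of the library. *Mael*, the mutated gene, was at 144 to 219 CPM in the RNA of the heterozygous testes and held 0 to 2 counts in each Mael-/- RNA library. In footprints it was at 84.2 to 137 CPM in heterozygous testes and held 0 to 7 counts in Mael-/-. The summed RNA level of 12 markers of pachytene spermatocytes was 988 CPM in heterozygous extract 1, against 416 and 433 CPM in the other heterozygous extracts and 356 to 390 CPM in Mael-/-. That extract stood apart, and results that rest on it are also given without it, except the median fold changes of marker lists, which include it. In whole testis, fewer cells of a type and less RNA per cell cannot be told apart.

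The 2 families took between 17.4% and 21.0% of the repeat counts of an RNA library and between 8.21% and 9.22% of those of a footprint library. In RNA, B2 outweighed B4: the ratio of B2 to B4 counts was 2.71, 3.11 and 2.98 in heterozygous replicates 1 to 3 and 3.17, 3.61 and 3.345 in Mael-/- replicates 1 to 3. The genotypes did not overlap in this ratio. In footprints the families were close to equal, at 1.001 to 1.049 in all 6 libraries, and the genotypes overlapped. An exact permutation test of 3 against 3 libraries cannot give a two-sided p below 0.1, which is the p of the RNA ratio, and it was 0.571 after adjustment over the 20 ratios tested.

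RNA of the 3 younger B2 subfamilies stood higher in every Mael-/- library than in any heterozygous one, by 1.22 to 1.34 times on average, but none passed the test across all repeat subfamilies. B2_Mm1a RNA was at 2656, 2868 and 2706 CPM in heterozygous replicates 1 to 3 and at 3868, 3595 and 3368 CPM in Mael-/- replicates 1 to 3. B2_Mm1t RNA was at 2129, 2255 and 2108 CPM in heterozygous and at 3153, 2845 and 2718 CPM in Mael-/- libraries. B2_Mm2, the most abundant of the 9 in RNA, was at 4131, 4281 and 4276 CPM in heterozygous and at 5635, 5040 and 4782 CPM in Mael-/- libraries. For each of these, the lowest Mael-/- library lay above the highest heterozygous one. Over all 1114 subfamilies tested, 9.43% had every Mael-/- RNA library above every heterozygous one. Of B1, the levels of 4 subfamilies were taken for comparison, and their RNA was also separated in this way, B1_Mm at 603 to 630 CPM in heterozygous and 663 to 710 CPM in Mael-/- libraries, B1_Mus1, B1_Mus2 and PB1, by 1.09 to 1.18 times on average.

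The other 6 subfamilies overlapped between genotypes. B3, an older B2 subfamily, was at 2984, 2519 and 2669 CPM in heterozygous and at 3425, 2690 and 2738 CPM in Mael-/- RNA. B4 itself, the least abundant of the 9 in RNA, was at 599, 510 and 541 CPM in heterozygous and at 698, 528 and 554 CPM in Mael-/- RNA. In B3, B3A, B4, B4A, ID_B1 and RSINE1 alike, replicate 1 was the highest library of its genotype. That was the extract rich in pachytene markers among the heterozygous libraries, and the RNA library with the fewest gene counts among the Mael-/- ones. The part of either in these levels was not tested.

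**Figure D1:**
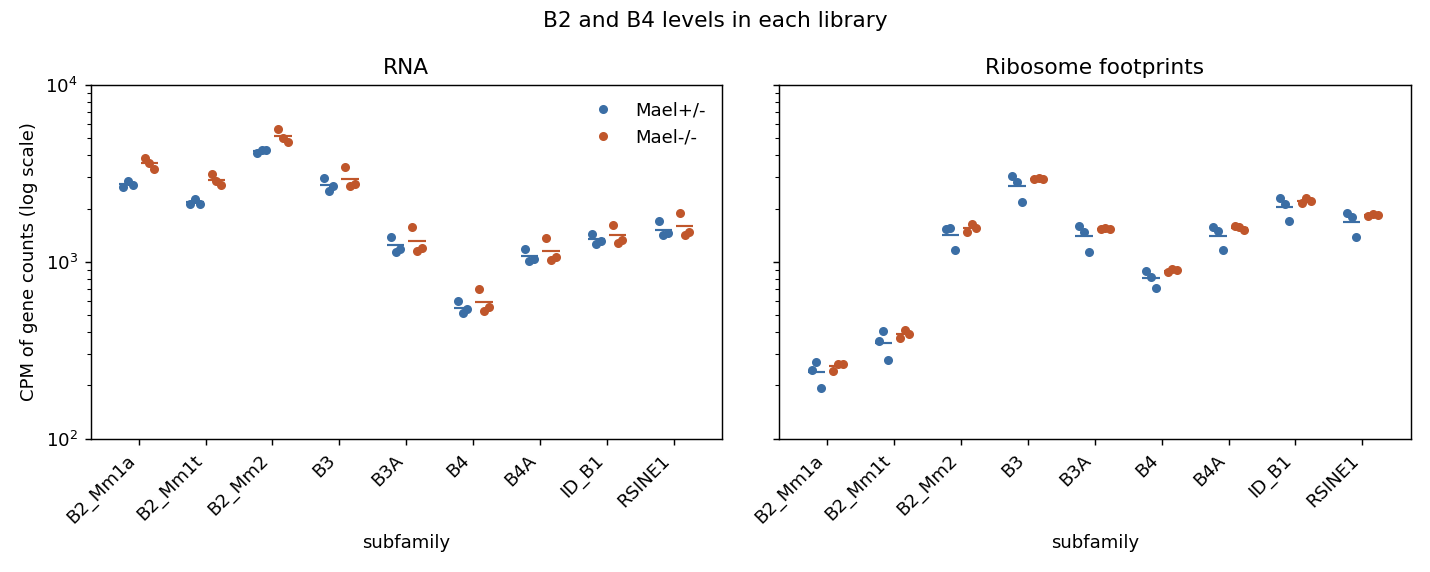
Level of each B2 and B4 subfamily in CPM (log axis) in every library, RNA on the left and footprints on the right, with Mael+/- in blue, Mael-/- in orange and a bar at the mean of 3 replicates. In RNA the points of B2_Mm1a, B2_Mm1t and B2_Mm2 separate by genotype, and in footprints no subfamily does.

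With edgeR's quasi-likelihood test, adjusted over all subfamilies, 0 of 9 members were called in RNA at an adjusted p under 0.05, where 0.898% of the 1114 subfamilies tested were. At an unadjusted p under 0.05 the members numbered 3, the younger B2 subfamilies, and DESeq2 also called 0. The log2 fold change in edgeR was 0.42 for B2_Mm1t (SE 0.13, 95% interval 0.16 to 0.69, adjusted p = 0.208) and 0.40 for B2_Mm1a (SE 0.12, interval 0.14 to 0.66, adjusted p = 0.238). It was 0.28 for B2_Mm2 (SE 0.12, interval 0.03 to 0.54, adjusted p = 0.674). The other 6 lay between 0.07 for ID_B1 and 0.12 for B3, and their median of 0.09 was near the median of 0.10 over all subfamilies tested. The 16 subfamilies of B1, the related SINE family derived from 7SL RNA, ran from -0.11 to 0.24 with a median of 0.08, and 0 of them were called. Ordered by p, B2_Mm1t, B2_Mm1a and B2_Mm2 held ranks 21, 24 and 48 of the 1114. Without heterozygous replicate 1 their log2 fold changes were 0.41, 0.37 and 0.27. Without Mael-/- replicate 1, the log2 fold changes of the 6 older subfamilies turned to between -0.075 and -0.0084, while those of the 3 younger ones kept their sign in each fit that left out 1 library. The call depended on the model. With a replicate block, edgeR called B2_Mm1t (adjusted p = 0.00226) and B2_Mm1a (adjusted p = 0.00408), among 39 of 1114 subfamilies. Whether replicate numbers pair the genotypes was not settled.

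Ratios within a library need no scaling between libraries. Per B3 count, B2_Mm1t counts were 0.713, 0.895 and 0.790 in heterozygous RNA and 0.921, 1.06 and 0.993 in Mael-/- RNA, with no overlap (exact permutation p = 0.1, the smallest possible here). Per B3 count, B2_Mm1a counts were 0.890, 1.14 and 1.01 in heterozygous RNA and 1.13, 1.34 and 1.23 in Mael-/- RNA, where the groups overlapped (exact permutation p = 0.2). Set against B1_Mm, a subfamily of B1, B2_Mm1a was at 4.22, 4.76 and 4.44 in heterozygous and at 5.45, 5.35 and 5.08 in Mael-/- RNA, again with no overlap (exact permutation p = 0.1). For B2_Mm2 per B3 the groups overlapped, at 1.384 to 1.699 in heterozygous and 1.645 to 1.874 in Mael-/- RNA (exact permutation p = 0.2). After adjustment over the 20 ratios tested, each of these exact permutation p-values was 0.571. In footprints each of these ratios overlapped between genotypes. The Mael-/- mean over the heterozygous one was 0.980, 1.02 and 0.993 for B2_Mm1a, B2_Mm1t and B2_Mm2 per B3. It was 1.01 for B2_Mm1a per B1_Mm. Among the older members, each RNA ratio to B3 overlapped between genotypes.

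Footprints of the members differed little between genotypes. B2_Mm1a footprints were at 245, 272 and 194 CPM in heterozygous and at 241, 265 and 263 CPM in Mael-/- libraries. B3 footprints were at 3052, 2823 and 2170 CPM in heterozygous and at 2929, 2992 and 2924 CPM in Mael-/- libraries. For all 9 members, heterozygous replicate 3 was the lowest library and the genotypes overlapped, whereas 11.3% of the 1045 subfamilies tested had every Mael-/- library above every heterozygous one. Called members numbered 0 of 9 with edgeR's quasi-likelihood test, with 0 at an unadjusted p under 0.05 and 0 with DESeq2, where 1.82% of the subfamilies tested were called. The log2 fold changes of the members ran from 0.11 for B2_Mm1a (SE 0.19, adjusted p = 0.896) to 0.16 for B2_Mm1t (SE 0.19, adjusted p = 0.878), with a median of 0.13 that equalled the median over all subfamilies tested. The intervals of the 9 reached from -0.27 to 0.54, so a change of the size seen in RNA would lie inside them.

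Translation efficiency, the change of footprints beyond that of RNA, gave 0 called members and 0 called subfamilies (0.0% of 1148) with edgeR's quasi-likelihood test of the interaction over 12 libraries. At an unadjusted p under 0.05 it gave 0 members and 36 subfamilies, and DESeq2 called 0. The log2 change was -0.28 for B2_Mm1a (SE 0.25, 95% interval -0.79 to 0.23), -0.26 for B2_Mm1t (SE 0.25, interval -0.78 to 0.25) and -0.15 for B2_Mm2 (SE 0.25, interval -0.66 to 0.36), and 0.02 to 0.06 for the other 6. Without both libraries of heterozygous extract 1, a setting chosen after seeing the data, it was -0.24 for B2_Mm1a, -0.23 for B2_Mm1t and -0.082 for B2_Mm2, with 0 members called. When single libraries were left out, these 3 values were closest to 0 without the footprints of heterozygous replicate 2, at -0.17, -0.14 and -0.080, and farthest from 0 without those of heterozygous replicate 3, at -0.41, -0.40 and -0.27.

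**Figure D2:**
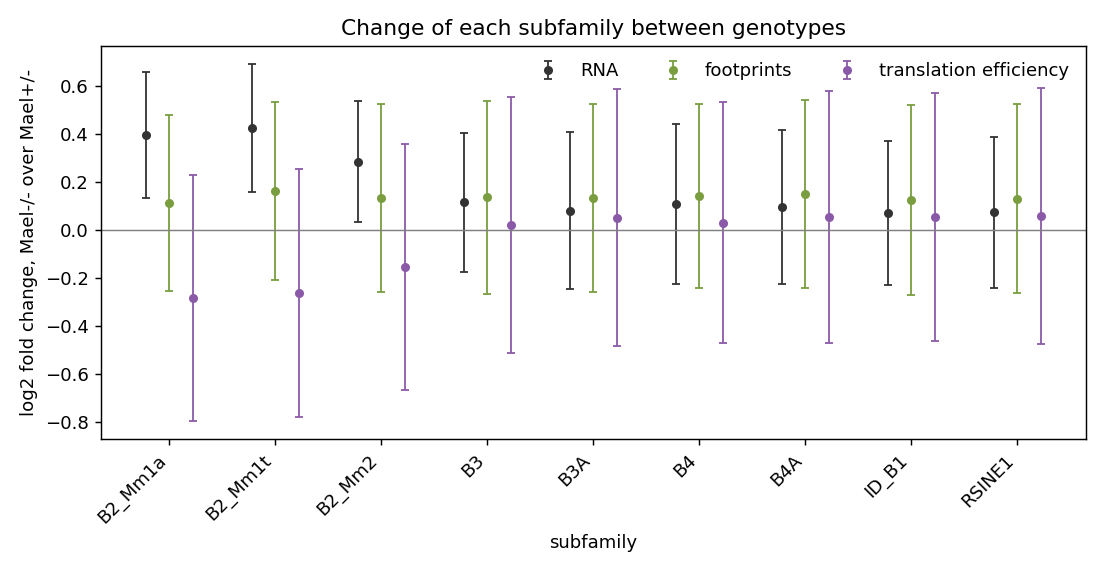
Log2 fold change of Mael-/- over Mael+/- for each subfamily (points) with its 95% interval (bars), for RNA, footprints and translation efficiency. The RNA intervals of B2_Mm1a, B2_Mm1t and B2_Mm2 lie above 0, before adjustment over all subfamilies, and every other interval crosses 0.

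The subfamilies spanned a wide range of footprints per RNA. The ratio of footprint CPM to RNA CPM, which is 1 for the sum of genes by construction, was lowest in B2_Mm1a, at 0.0922, 0.0948 and 0.0718 in heterozygous extracts and 0.0622, 0.0738 and 0.0781 in Mael-/- extracts. It was 0.117 to 0.180 over the 6 extracts in B2_Mm1t and 0.262 to 0.369 in B2_Mm2. These 3 ranges overlapped neither each other nor that of B3, at 0.813 to 1.12. The order then ran through RSINE1, B3A, B4A and B4 to ID_B1, at 1.29 to 1.79, and each range overlapped the next. Within an extract each subfamily was nevertheless above the one before it in 6 of 6 extracts, except that ID_B1 was above B4 in 5 of 6.

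B3, the subfamily with the most copies, was taken as the reference for a test within extracts. B2_Mm1a had 12.7 times fewer footprints per RNA than B3, a log2 difference of -3.67 ± 0.18 (SD, n = 6 extracts, exact sign-flip permutation p = 0.0312). For B2_Mm1t the log2 difference from B3 was -2.76 ± 0.16 and for B2_Mm2 it was -1.64 ± 0.11, each with the same exact permutation p. The 5 other subfamilies lay 0.20 to 0.64 above B3 on the log2 scale in 6 of 6 extracts, also at that p, which is the smallest that 6 extracts can give and stayed 0.0312 after adjustment over the 8 tests. B1_Mm lay at 0.593 to 0.786 and the B1 family as a whole at 1.35 to 1.96. That family includes PB1, at 2697 to 5277 CPM in footprints but 202 to 271 CPM in RNA. Footprint reads are shorter than the RNA reads, and how reads that match several copies were counted is not stated for these libraries. Their part in this order was not tested.

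**Figure D3:**
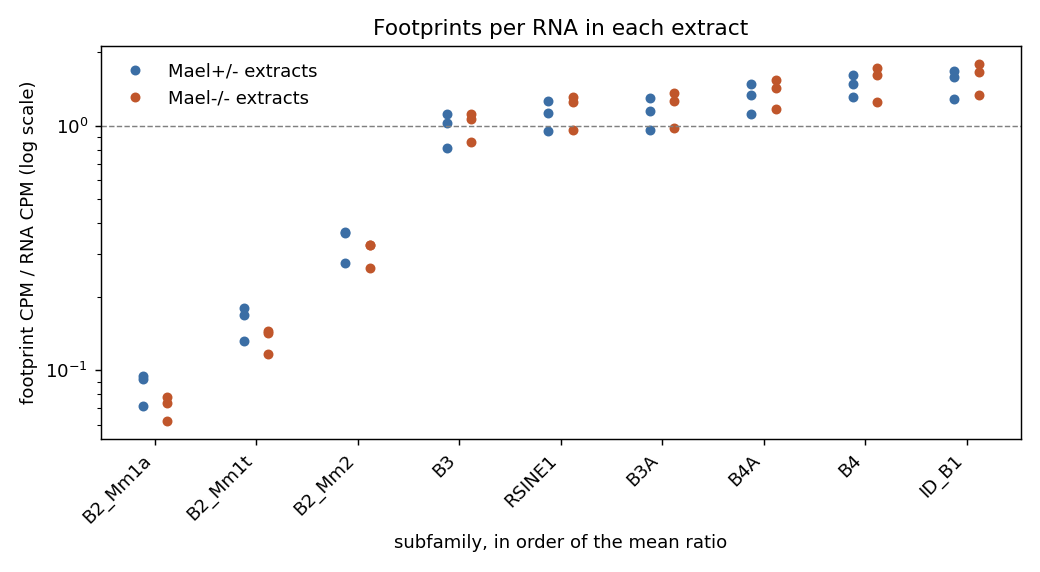
Footprint CPM divided by RNA CPM (log axis) for each subfamily in each of the 6 extracts, blue for Mael+/- and orange for Mael-/-, with a dashed line at 1. B2_Mm1a, B2_Mm1t and B2_Mm2 lie apart from each other and below all points of the 6 others.

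Coverage of single copies was uneven. Of the 769477 copies, 241538 (31.4%) had at least 1 count in the 12 libraries. RNA counts were found on 72.9% of B2_Mm1a copies, 65.4% of B2_Mm1t copies, 46.7% of B2_Mm2 copies and 24.5% of B3 copies, down to 15.3% of B4 copies. Footprint counts were found on 22.4% of B2_Mm1a copies, 27.2% of B2_Mm1t copies and 14.7% of B4 copies, a narrower span. Summed over libraries this came to 23.5 RNA counts per B2_Mm1a copy, 14.8 per B2_Mm1t copy, 7.08 per B2_Mm2 copy and 2.598 per B3 copy, and to 1.21 to 1.86 per copy in the 5 others. Footprint counts per copy lay between 0.786 and 1.13 in all 9. Copy length is not in the table, so these values are per copy and not per base.

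Few copies carried much of the signal. The top 1% of copies held 35.8% of RNA counts in B2_Mm1a and 49.9% in B4, with the other subfamilies between. The 10 most abundant B2_Mm1a copies held 9.02% of its RNA counts, and without the 10 most abundant copies of each subfamily 0 of 9 members were called in each contrast.

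Abundant B2 RNA often came with no footprint. Of 2820 B2 copies with at least 100 RNA counts over the 6 RNA libraries, 653 (23.2%) had 0 footprint counts, against 0 of 553 such B4 copies. The share was 42.6% in B2_Mm1a, 34.2% in B2_Mm1t, 13.6% in B2_Mm2 and 0.730% in B3. B2_Mm1t_19268, the B2_Mm1t copy with the highest mean level, held 1101, 1493 and 1489 RNA counts in heterozygous libraries and 948, 1449 and 1720 in Mael-/- libraries, with 0 footprint counts in all 6. In B2_Mm2_57288, the top copy of B2_Mm2, 739 to 1363 RNA counts per library stood beside 0 to 2 footprint counts. B2_Mm1a_11874, the top B2_Mm1a copy, held 1166 to 1956 RNA counts and 4 to 12 footprint counts per library. At 0 counts, the footprint depth allows up to 3 counts per library, and these limits cover counting error only.

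Other copies held many counts in the footprint libraries and almost none in RNA. Whether these reads came from RNA held by ribosomes, or from these copies at all, was not tested. Of the 422 members with at least 100 footprint counts, 231 had at most 6 RNA counts. These were 145 of 240 such copies of the B4 family and 86 of 182 of the B2 family, where 42 were B3 and 32 B3A copies. They held 16.9% of the footprint counts of the subfamily B4 and 13.6% of those of ID_B1, but 0% of those of B2_Mm1a. B4_11897, the top B4 copy, held 368, 360 and 275 footprint counts in heterozygous libraries and 526, 489 and 387 in Mael-/- libraries, with 0 RNA counts in every library. B4A_67390, the top B4A copy, ran from 198 to 748 footprint counts with 0 RNA counts, and ID_B1_106877 from 316 to 518 footprint counts with 1 or 2 RNA counts. By contrast, the top copies of B3, B3A and RSINE1 were well covered in both assays, with 313 to 641 RNA counts and 32 to 63 footprint counts per library in B3_50445, 366 to 641 and 32 to 60 in B3A_65673, and 181 to 466 and 20 to 49 in RSINE1_45583. None of these 9 top copies was called between genotypes in an assay in which it was tested.

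**Figure D4:**
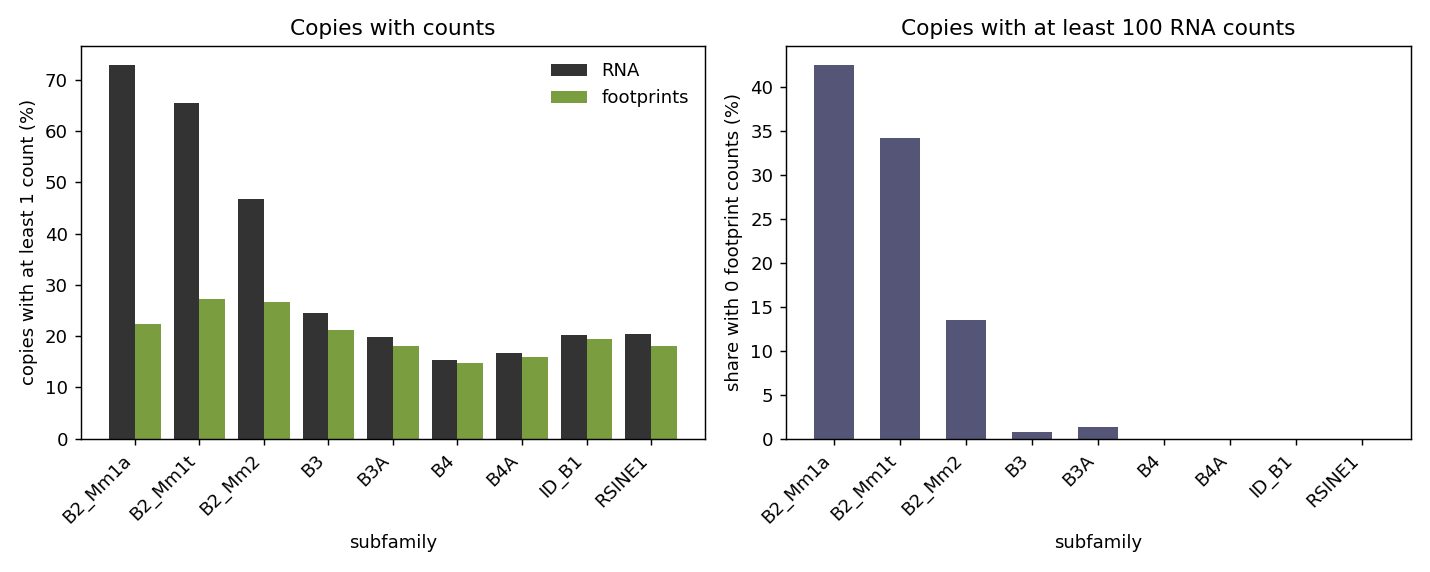
Left, share of copies of each subfamily with at least 1 count in RNA (dark) and in footprints (green). Right, share of copies with at least 100 RNA counts that had 0 footprint counts, from 42.6% in B2_Mm1a to 0% in B4, B4A, ID_B1 and RSINE1.

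Between genotypes, 75 member copies were called in RNA, all higher in Mael-/-, of 7795 that passed the filter on low counts (0.962%). Over the 16710 repeat copies of all classes tested, 253 (1.51%) were called higher and 17 lower. Calls were thus mostly upward in all classes, and the members' share called higher lay below the background. This background contains the members themselves. B2_Mm1a accounted for 32 of the 75, B2_Mm1t for 18 and B2_Mm2 for 19. That is 1.52% of the 4538 tested copies of these 3 subfamilies, beside the 1.51% over all copies, these included. The older subfamilies accounted for 6, or 0.184% of 3257 tested copies, with 2 in B3, 1 each in B3A, B4, ID_B1 and RSINE1 and 0 in B4A. Only 1.01% of all member copies passed the filter, and a copy that is high in 1 genotype can pass through that genotype alone. Of the 75, DESeq2 also called 48, and 20 were called in all 6 fits that left out 1 library. Without heterozygous replicate 1, 162 of 10642 members were called, 3 of them lower, beside 520 of 22644 copies of all classes. Without Mael-/- replicate 1 the called members were 40 of 10179, beside 259 of 22055. Without Mael-/- replicate 2 they were 26 of 10554, beside 193 of 22940.

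The largest change against a measured level was in B2_Mm1t_17653, which held 4, 16 and 4 counts in heterozygous RNA and 245, 304 and 435 counts in Mael-/- RNA. That was 51.5 times higher, a log2 fold change of 5.69 (SE 0.33, adjusted p = 6.92e-11 by edgeR's quasi-likelihood test), and without heterozygous replicate 2 the log2 fold change was 6.60. The groups were far apart, and the copy held 0 footprint counts in each heterozygous library and 1 in each Mael-/- library. B2_Mm2_88339 held 1, 0 and 5 counts in heterozygous and 28, 29 and 30 counts in Mael-/- RNA, which by edgeR was 4.16 higher on the log2 scale (SE 0.57, adjusted p = 3.98e-05), with 0 footprint counts in all 6 libraries. This size is loosely set, since the value was 5.87 without heterozygous replicate 3 and 3.56 without heterozygous replicate 2, and the heterozygous mean of 0.0774 CPM lay below the level of 3 counts per library, 0.118 CPM, against which the Mael-/- mean was 12.9-fold higher.

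In 3 further copies the heterozygous libraries held at most 3 counts each, and the fold is a lower bound against that floor. B2_Mm2_79213 held 0, 1 and 0 counts in heterozygous and 17, 39 and 46 counts in Mael-/- RNA, at least 13.7-fold higher (edgeR adjusted p = 6.36e-07). ID_B1_109291 held 0 counts in every heterozygous library and 6, 9 and 13 counts in Mael-/- RNA, at least 3.84-fold higher (edgeR adjusted p = 0.00308). B2_Mm1a_502 held 1, 0 and 1 counts in heterozygous and 6, 18 and 13 counts in Mael-/- RNA, at least 5.11-fold higher (edgeR adjusted p = 0.00268). Of these 5 copies, ID_B1_109291 and B2_Mm1a_502 were not called in every fit that left out 1 library. Counts of young copies are uncertain, since near-identical copies can share reads.

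Of the 75, 10 copies were at the floor in every heterozygous library, with lower bounds of 3.84-fold to 13.7-fold, and the other 65 rose by 1.85 to 51.5 times. The smallest change was in B3_46109, at 264, 249 and 218 counts in heterozygous and 285, 344 and 427 counts in Mael-/- RNA (log2 fold change 0.89, SE 0.21, edgeR adjusted p = 0.0193), and in CPM its groups did not overlap. Of the 75, 24 held 0 footprint counts. The summed footprint level of the 75 was 3.29, 5.69 and 2.93 CPM in heterozygous and 7.19, 8.18 and 6.05 CPM in Mael-/- libraries, with no overlap. Without B3_46109 the sum was 2.44, 4.397 and 2.54 CPM against 5.60, 5.89 and 4.98 CPM. These sums are given with no test, because the copies were chosen on RNA of the same extracts.

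In footprints, 1 of 1056 member copies tested was called, and it was lower in Mael-/-, where 0.254% of the 5511 repeat copies tested were called lower. B4A_98190 held 68, 12 and 17 footprint counts in heterozygous and 0, 0 and 1 in Mael-/- libraries, at least 11.8-fold lower (edgeR adjusted p = 0.000335), or at least 5.46-fold without heterozygous extract 1. Its RNA held 17, 3 and 3 counts in heterozygous and 0 in every Mael-/- library, so without extract 1 the RNA was at the floor of 3 counts in both genotypes. The highest value in both assays was in heterozygous extract 1, and without its footprint library the copy was still called.

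**Figure D5:**
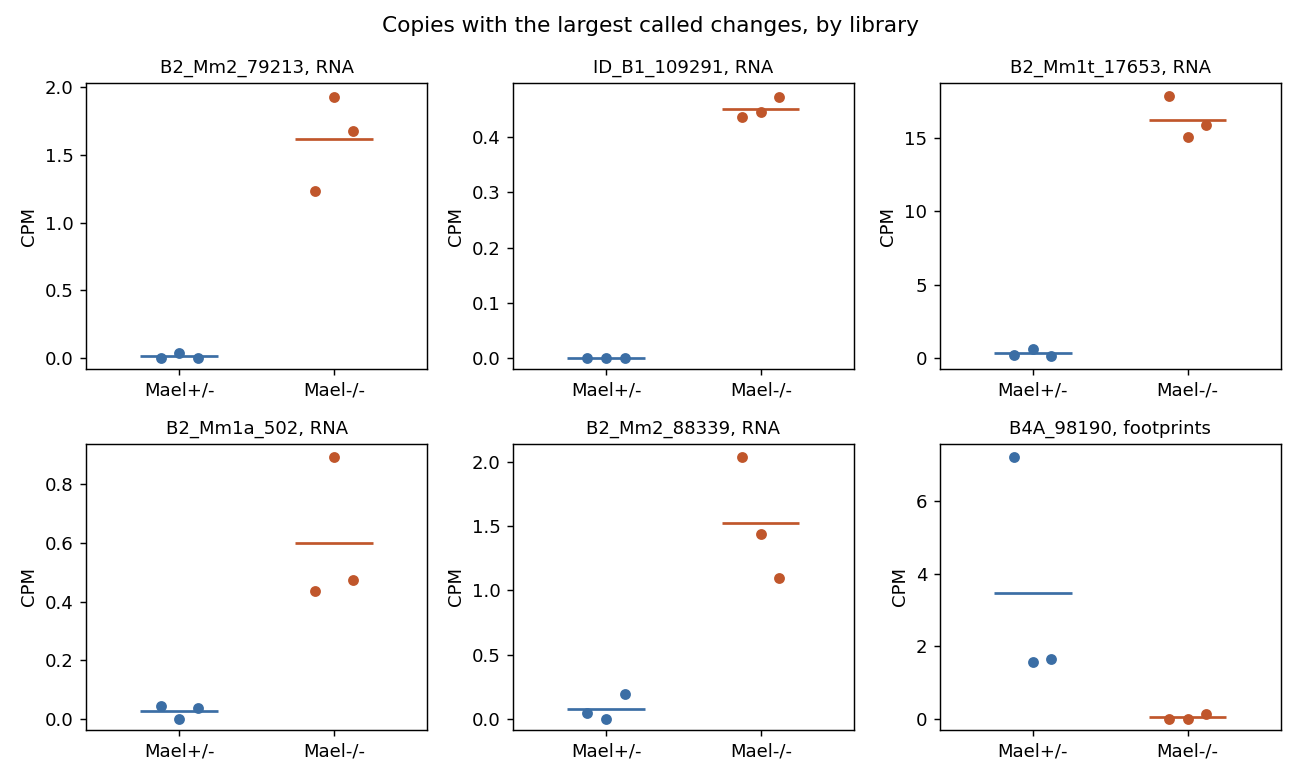
CPM in each library (points) and the mean of 3 replicates (bar) for the 5 member copies with the largest fitted RNA changes and for the 1 copy called in footprints, with a separate linear axis for each copy. The RNA copies lie near 0 in Mael+/- and higher in all Mael-/- libraries, and B4A_98190 does the opposite.

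Genes that make, silence and bind SINE RNA gave 0 calls of 56 in either assay. Of 25 genes of RNA polymerase III transcription, which include the polymerase's subunits, the factors that recruit it to internal promoters and its repressor *Maf1*, 9 were higher and 16 lower in Mael-/- RNA, with a median log2 fold change of -0.01, and 0 were called. Of 19 genes of chromatin repression, among them the H3K9 methyltransferases *Setdb1* and *Suv39h1* and the DNA methyltransferases, 7 were higher and 12 lower with a median of -0.04, and 0 were called. Of 12 genes for proteins that bind or process SINE RNA, among them *Srp9*, *Srp14* and the editing enzyme *Adar*, 3 were higher and 9 lower with a median of -0.06, and 0 were called. Over all 14647 genes tested in RNA with edgeR, 0.116% were called and the median was -0.0013. At an unadjusted p under 0.05 the 3 lists also gave 0 in RNA and 0 in footprints, and DESeq2 called 0 of their genes in either assay. In footprints the list medians were -0.02, -0.0015 and -0.05 over 25, 19 and 11 genes, with 0 called, against 0.0593% of all 13500 genes.

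Of the marker lists of cell types, none had a gene called in RNA with edgeR, and the median log2 fold change was lowest for pachytene spermatocytes. All 11 pachytene markers tested were lower in Mael-/- RNA, with a median log2 fold change of -1.08 and 0 called with edgeR, heterozygous extract 1 included. The heterozygous sum without extract 1 was 416 to 433 CPM, against 356 to 390 CPM in Mael-/-. The summed RNA level was 908 to 1083 CPM against 891 to 975 CPM for 8 markers of spermatogonia and 615 to 1569 CPM against 618 to 911 CPM for 8 of early meiotic prophase. For somatic cells it was 6149 to 7228 CPM against 6497 to 7103 CPM for 8 Sertoli markers, 324 to 539 CPM against 272 to 528 CPM for 6 Leydig markers and 66.9 to 106 CPM against 97.4 to 108 CPM for 4 macrophage markers. The median log2 fold change in RNA was -0.29 for early meiotic prophase, with heterozygous extract 1 included. That extract was at 1569 CPM in the early prophase sum, against 615 and 732 CPM in heterozygous extracts 2 and 3. The Mael-/- extracts 1 to 3 were at 844, 911 and 618 CPM. For macrophages, whose 4 markers were all higher in Mael-/-, the median was 0.37. It was between -0.041 and 0.021 for spermatogonia, Sertoli and Leydig cells. At an unadjusted p under 0.05 edgeR gave 6 pachytene markers and 1 each of early meiotic prophase, Leydig cells and macrophages. None of the markers was at 0 in all libraries. In RNA of heterozygous extracts 1 to 3 the younger B2 subfamilies were at 8916, 9404 and 9091 CPM in sum. The part of the marked cell types in the B2 and B4 values was not tested.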

How the data were processed

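Total RNA (stranded, depleted of ribosomal RNA) and micrococcal nuclease footprints were sequenced by the authors from cycloheximide-treated extracts. Per the labels and methods, reads were mapped to mm10 with STAR 2.6.0c, for footprints after ribosomal reads were removed with Bowtie 1.2.2. Gene reads were counted with featureCounts (Subread 1.6.4), with footprints taken from coding sequence only and RNA from full-length transcripts, so the gene totals that scale the 2 assays differ in kind. The deposited table holds raw counts per gene and per repeat copy. How ambiguous repeat reads and duplicates were treated is not given in the sources used here, so copies are uncertain. The 3 deposited result tables hold fold changes and p-values of the authors' comparisons and were not used. Every sample column was mapped to a sample, leaving 0 unmapped.

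Counts were summed by subfamily and tested with edgeR 4.0.16 under R 4.3.3 (quasi-likelihood F-tests). Gene totals served as library sizes, TMM factors were computed on genes within each assay, and low counts were removed by the default filterByExpr (minimum count 10). P-values were adjusted (Benjamini-Hochberg) over all features tested, with a call at an adjusted p under 0.05, and the SE is the log2 fold change over the root of F. Translation efficiency was the interaction of genotype and assay. RNA and footprints of 1 extract deviated together (correlation across 12819 genes 0.64 to 0.78 in heterozygous and 0.24 to 0.25 in Mael-/- extracts), so extracts pair the assays, and a fit with the extract as a block changed no call. The scripts were tested on simulated data. A group with at most 3 counts in each library gave a fold as a lower bound. Alternatives were median-of-ratios factors, library sizes from genes and repeats, other filters, DESeq2 1.42.0, a replicate block, omission of each replicate, of abundant copies, and of heterozygous extract 1. The text names every subfamily, its copy with the highest mean CPM, up to 5 called copies each way per contrast by fitted fold change, and called list genes. B3_46109, with the smallest called change, was named after its values were seen. Members and lists were chosen with earlier results of these data known. Within-library ratios and footprints per RNA were tested with exact permutation tests, two-sided.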

Additional observations from a re-analysis of the deposited data

How the results depend on the processing

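Called subfamilies stayed at 0 of 9 in all 3 contrasts under every alternative run but 1. Whether replicate numbers pair the genotypes was not settled. Same-number correlations were 0.003 to 0.24 in RNA and 0.04 to 0.22 in footprints, all positive. Those between other numbers were -0.34 to 0.31 in RNA and -0.22 to 0.17 in footprints. With a replicate block in edgeR 2 members were called in RNA, B2_Mm1a (adjusted p = 0.00408) and B2_Mm1t (adjusted p = 0.00226), among 39 subfamilies. For translation efficiency the extract block called 0. Called member copies in RNA were 75 of 7795, beside 270 of 16710 copies of all classes. They became 49 with DESeq2, beside 226 of all classes, and 118 with the replicate block, beside 342. With a minimum count of 5 they were 128 of 19116, beside 602 of 42588. With a minimum count of 20 they were 26 of 3094, beside 85 of 6438. When 1 library was left out they were 26 to 162, beside 193 to 520 of all classes. In footprints 1 member copy was called, beside 45 of 5511 copies of all classes. It became 2 with a minimum count of 5, beside 86 of 13320, and 0 with a minimum count of 20, beside 16 of 2296. When 1 library was left out it was 1 to 3, beside 43 to 63 of all classes. The cause was not tested. Directions of members turned in some fits that left out 1 library, but for 0 of the 75 copies called in RNA and 0 of the 1 in footprints. In RNA the log2 fold change then ranged from -0.0084 to 0.19 in B3, -0.075 to 0.17 in B3A, -0.026 to 0.18 in B4, -0.050 to 0.17 in B4A, -0.040 to 0.13 in ID_B1 and -0.071 to 0.16 in RSINE1. In footprints it ranged from -0.011 to 0.22 in B2_Mm1a. In translation efficiency it ranged from -0.11 to 0.15 in B3, -0.077 to 0.21 in B3A, -0.053 to 0.17 in B4, -0.066 to 0.20 in B4A, -0.059 to 0.16 in ID_B1 and -0.069 to 0.20 in RSINE1. Calls of the 3 gene lists stayed at 0 in every alternative run. Leaving out copies that overlap an exon was not run, because the table gives no positions. With 3 libraries per group, the intervals above set the size of change that could be seen, and footprint depth leaves most copies below the filter.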
